A study of Drosophila melanogaster with 8 samples.

Results

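The genes described here encode Polycomb and trithorax group proteins, ATP-dependent chromatin remodellers, heterochromatin proteins and histone-modifying enzymes of the fruit fly Drosophila melanogaster. They were taken by symbol from a list of 40 genes. Of these, 38 were found among the 13781 symbols of the deposited table, and all 38 passed the filter on low counts, which left 9442 genes. The symbols Caf1 and Sir2 were not matched. Messenger RNA of fly heads was measured by 3′ RNA-seq after the RNAtag-Seq protocol, in a study of the chromatin factor ROW and its cooperation with the boundary protein BEAF-32. Control flies were Actin-gal4/+ (3 libraries), and the knockdown flies were Actin-gal4/+; UAS-rowRNAi1/+ (row_RNAi1, 2 libraries) and Actin-gal4/+; UAS-rowRNAi2/+ (row_RNAi2, 3 libraries). All groups thus carried the Actin-gal4 driver, which is active in most tissues, while the control label names no UAS transgene. Flies were raised at 25 °C in a cycle of 12 hours of light and 12 of dark and collected 3 days after CO2 exposure, and the labels give neither their age and sex nor the number of heads per library.

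Polycomb group proteins keep developmental genes silent. Polycomb repressive complex 2 (PRC2) methylates lysine 27 of histone H3, and PRC1 binds that mark, compacts chromatin and adds ubiquitin to histone H2A. Trithorax group proteins counteract them by methylating histone H3 at lysine 4 or by sliding and evicting nucleosomes. Heterochromatin forms where methyltransferases such as Su(var)3-9 methylate lysine 9 of histone H3 and the chromodomain protein HP1a, the product of Su(var)205, binds it. ROW is itself a zinc-finger protein found in complexes with another HP1 protein, HP1c.

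Library totals ran from 6230666 to 18046699 counts, and the row_RNAi1 libraries, with at least 17952015 counts, were the deepest. The targeted gene row stood at 14.3, 14.9 and 12.1 CPM (counts scaled to library size) in the controls, at 5.93 and 4.22 in row_RNAi1, and at 8.04, 5.97 and 8.28 in row_RNAi2. All 5 knockdown libraries were below all 3 controls, a difference of -7.26 CPM in the means (exact two-sided permutation test, p = 0.0179, the smallest that 56 arrangements allow). Markers of neurons (8 genes) summed to between 853 and 910.1 CPM in controls, 767 and 790.4 in row_RNAi1, and 838 and 915 in row_RNAi2. Photoreceptor markers (6) summed to between 12190 and 12490, 10950 and 11330, and 10590 and 12350 CPM. Summed over 6 genes, muscle markers ran from 1636 to 1760 CPM in controls, 2159 to 2257 in row_RNAi1 and 1766 to 1946 in row_RNAi2 (3 of 6 called higher on average). The 6 glial markers ran from 1293 to 1333, 1032 to 1044 and 1138 to 1258 CPM (2 called lower), and the 5 antennal markers in the table from 1489 to 1703, 1116 to 1124 and 1122 to 1215 CPM (4 called lower). Hemocyte markers (4) summed to between 105 and 118 CPM in controls, 144 and 150 in row_RNAi1, and 85.6 and 97.1 in row_RNAi2. Fat body markers (7) ranged from 61300 to 100600 CPM over all libraries (2 called higher and 1 lower), whereas 2 germline markers reached at most 1.03 CPM. No listed marker in the table was at 0 in all libraries. In bulk heads, a change in the share of a cell type and a change of RNA per cell cannot be told apart, and the part of these shifts in the values below was not tested.

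Most chromatin regulator genes stayed close to their control levels in heads of both knockdown lines. A gene counts as called here where edgeR's quasi-likelihood test, with Benjamini-Hochberg adjustment across the 9442 genes, gave an adjusted p below 0.05. In row_RNAi1, 2 of 38 were called, Nurf-38 and ash2, both higher, beside 21.2% of all tested genes (11.2% higher and 10% lower). In row_RNAi2, 0 of 38 were called, beside 10.8% of all genes (5.49% higher and 5.34% lower). There 4 of the 38 had an unadjusted p below 0.05 (Nurf-38, ash2, trx and lid). Nurf-38 was called in row_RNAi2 by DESeq2 (adjusted p = 0.0208) and by limma voom (adjusted p = 0.0464). Averaged over the lines, Nurf-38 and ash2 were called, both higher, beside 17.8% of all genes (9.24% higher and 8.56% lower). Between the lines, 2 of 38 differed, Nurf-38 and Su(var)205, both lower in row_RNAi2, beside 11.3% of all genes (4.98% higher and 6.33% lower). Restricting the background to the 7438 genes with a mean of at least 5 CPM gave 23.7%, 12.1%, 19.8% and 13.3% called in these 4 comparisons. Genes with summed counts in the range of the 38 gave 20.6%, 10.3%, 17.2% and 10.9%. That range is wide and kept 9081 of the 9442 genes, so it is not a background matched for depth. An unadjusted p below 0.05 without a call was also found for Sce and ph-d in row_RNAi1, for trx and Kdm4A on average, and for Sce, ph-d, ash2 and Gcn5 between the lines. In all, 4, 4, 4 and 6 of the 38 had an unadjusted p below 0.05 in the 4 comparisons, beside 31.2%, 20.9%, 28.3% and 23.3% of all genes. The shares called over all genes depended on the row_RNAi1 libraries: in row_RNAi1 the share was 12.8% without row_RNAi1 replicate 1 and 13.3% without replicate 2, and between the lines it was 5.77% and 5.78%. DESeq2 and limma voom called none of the 38 besides Nurf-38, ash2 and Su(var)205.

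**Figure D1:**
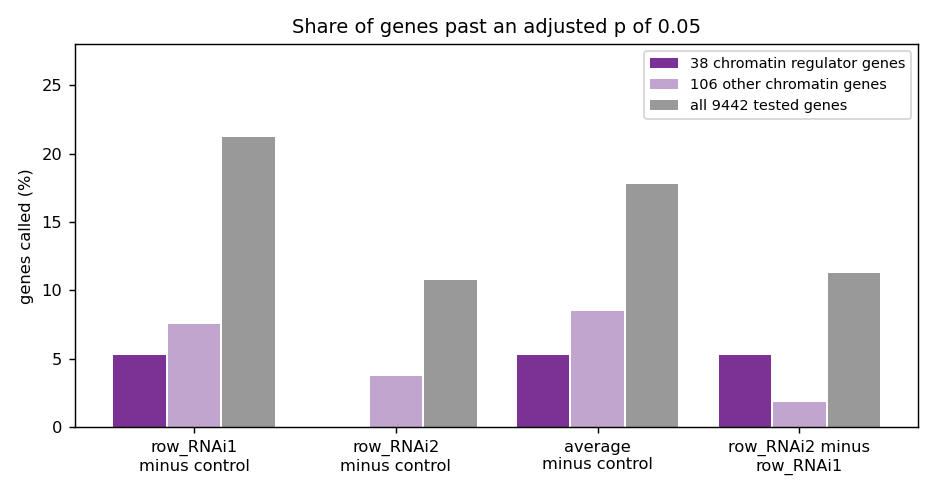
Share of genes called (vertical axis, percent, adjusted p under 0.05 in edgeR) in 4 comparisons, for the 38 chromatin regulator genes, 106 other chromatin genes and all 9442 tested genes. The chromatin regulator genes reach 5.26% in every comparison but row_RNAi2 minus control, where none is called, and all genes together reach 10.8% to 21.2%.

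The sizes of the changes were small as well. The median log2 fold change of the 38 genes was -0.03 in row_RNAi1 (17 positive, 21 negative), 0.04 in row_RNAi2 (21 positive, 17 negative) and 0.01 on average, beside -0.01 for all tested genes in each of these comparisons. The median absolute log2 fold change was 0.12 in row_RNAi1 and 0.07 in row_RNAi2, beside 0.19 and 0.14 for all genes. In row_RNAi1, 4 of 38 (10.5%) exceeded 0.5 either way, namely Nurf-38, ash2, Su(var)3-9 and Kdm4A, beside 17.9% of all genes. In row_RNAi2 these were esc and Kdm4A (5.26%, beside 11.4% of all genes). On average it was Kdm4A alone (2.63%, beside 12.9%), and between the lines esc, Nurf-38 and Su(var)3-9 (7.89%, beside 11.7%).

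Read depth and the spread between libraries set how precisely a change was estimated. The median count per library of the 38 genes ran from 72.5 to 201, and their standard errors (SE) in row_RNAi1 from 0.075 (Nurf-38) to 0.53 (Su(var)3-9), with a median of 0.145 beside 0.129 for all genes. At its own SE, a gene needed a median log2 change of 0.42 to pass in row_RNAi1 and 0.45 in row_RNAi2. Averaged over the lines, the 95% interval of the change lay within 0.5 either way for 30 of 38 genes and within 1 for 35. In row_RNAi1 the interval lay within 0.5 for 26 of 38, and in row_RNAi2 for 30 of 38. For the rest, a change beyond 0.5 was not excluded. The change needed on average ran from 0.18 (Nurf-38) to 1.30 (Su(var)3-9). This is the size that a gene's estimate had to reach to be called. It is not a limit on the true changes that could be detected.

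**Figure D2:**
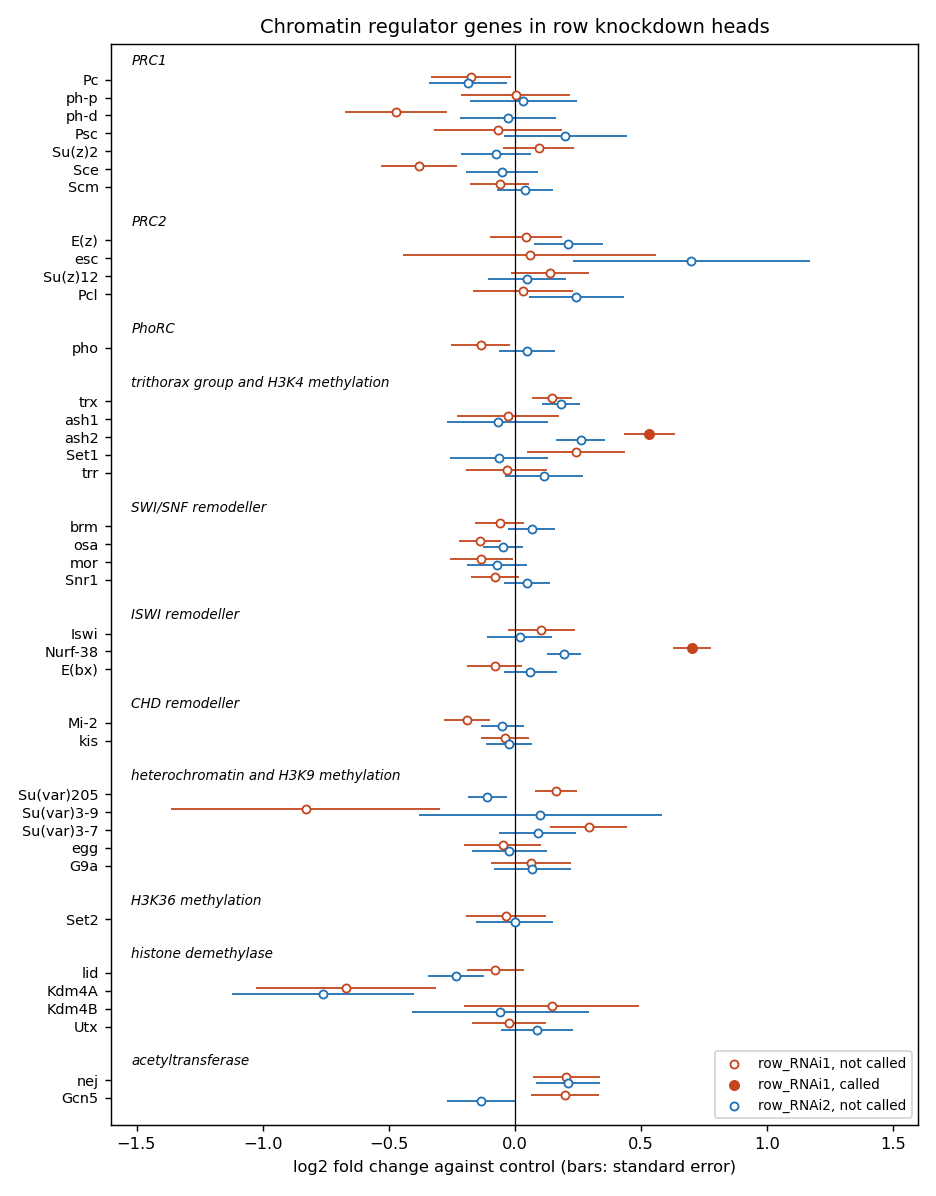
Log2 fold change against control (horizontal axis) of the 38 genes, grouped by role, in row_RNAi1 and row_RNAi2, with bars for 1 SE. Filled points passed the test: Nurf-38 (0.70) and ash2 (0.53) in row_RNAi1, and no gene in row_RNAi2. The widest bars belong to esc, Su(var)3-9, Kdm4A and Kdm4B, the genes with the lowest counts.

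Among the 7 genes of PRC1 and its associated protein Scm, 0 were called in any comparison, with log2 fold changes from -0.47 to 0.10 in row_RNAi1 and from -0.19 to 0.20 in row_RNAi2. Sce, which encodes the RING ubiquitin ligase of the complex, had the smallest p on average. It stood at 11.2, 11.1 and 9.93 CPM in controls, 8.78 and 7.69 in row_RNAi1, and 10.004, 11.6 and 9.34 in row_RNAi2. Both row_RNAi1 libraries were below the controls, and the row_RNAi2 libraries overlapped them. With 2 libraries against 3, even full separation, here and for the genes below, gives an exact permutation p of no less than 0.1. How often it occurred over all genes was not counted. The log2 fold change in row_RNAi1 was -0.38 (SE 0.15, adjusted p = 0.0881), with a 95% interval of -0.70 to -0.06, and that in row_RNAi2 was -0.05 (SE 0.14, adjusted p = 0.903).

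The tandem genes ph-p and ph-d encode related polyhomeotic proteins and lie next to each other in the annotation, where neither overlaps an exon of another gene. Whether the counting shared reads of similar sequence between them was not tested. Levels of ph-d were 8.14, 9.09 and 7.81 CPM in controls, 6.17 and 5.89 in row_RNAi1, and 10.7, 8.69 and 6.05 in row_RNAi2. Its row_RNAi1 libraries were lower than every control. The change there was -0.47 on the log2 scale (SE 0.20, adjusted p = 0.118), while ph-p had 0.00 (SE 0.22). Between the lines ph-d differed by 0.44 (adjusted p = 0.193), and it was called without row_RNAi2 replicate 3 (0.66, adjusted p = 0.0382). The chromodomain gene Pc, whose product reads the PRC2 mark, had log2 fold changes of -0.17 in row_RNAi1 and -0.19 in row_RNAi2 (SE 0.16 in each). Psc and Su(z)2, which encode related RING-finger proteins, had -0.07 and 0.10 in row_RNAi1 and 0.20 and -0.08 in row_RNAi2. Scm had -0.06 and 0.04.

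Of the 4 PRC2 genes, 0 were called, and all 4 had positive log2 fold changes in both lines, between 0.03 and 0.14 in row_RNAi1 and between 0.05 and 0.70 in row_RNAi2. E(z) encodes the methyltransferase subunit. Its levels were 10.2, 9.61 and 9.49 CPM in controls, 10.5 and 9.59 in row_RNAi1, and 10.2, 12.6 and 10.9 in row_RNAi2. The groups overlapped, with an average log2 fold change of 0.13 (95% interval -0.13 to 0.38, adjusted p = 0.557). The largest value, 0.70 for esc in row_RNAi2, rested on few reads. The gene, which encodes a WD-repeat subunit of the complex, had 8, 7 and 5 counts in the controls, 10 and 17 in row_RNAi1 and 10, 17 and 8 in row_RNAi2, so that its SE was 0.47 and its adjusted p = 0.455. Su(z)12 and Pcl, a core subunit and an accessory subunit, had average values of 0.09 and 0.14.

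The gene pho encodes a zinc-finger protein that binds Polycomb response elements, the DNA sites to which the complexes are recruited. It stood at 16.7, 16.3 and 14.96 CPM in controls, 14.3 and 14.8 in row_RNAi1, and 17.9, 17.5 and 14.6 in row_RNAi2. Both row_RNAi1 libraries were just below the controls, and the row_RNAi2 libraries fell on both sides of the controls. On average its log2 fold change was -0.04 (95% interval -0.25 to 0.17, adjusted p = 0.829).

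In the group of trithorax genes and methyltransferases of histone H3 lysine 4, ash2 rose, and trx, ash1, Set1 and trr were not called. The protein Ash2 is a shared core subunit of the 3 fly complexes that carry out this methylation, whose catalytic subunits are encoded by trx, Set1 and trr. Levels of ash2 were 26.8, 23.7 and 27.6 CPM in controls, 37.5 and 37.6 in row_RNAi1, and 30.2, 27.5 and 35.3 in row_RNAi2. Both row_RNAi1 libraries were above all controls, whereas in row_RNAi2 a library lay within the control range. The log2 fold change was 0.53 in row_RNAi1 (SE 0.10, adjusted p = 0.000767) and 0.26 in row_RNAi2 (SE 0.098, adjusted p = 0.119), and without row_RNAi2 replicate 2 the latter became 0.35 (adjusted p = 0.0494). The average was 0.40 (SE 0.087, adjusted p = 0.00309), but with all knockdown libraries as 1 group ash2 was not called (0.38, adjusted p = 0.0662). The difference between the lines, -0.27 (SE 0.099), had an adjusted p = 0.0914, and was called without row_RNAi2 replicate 3 (-0.39, adjusted p = 0.0156) and with no filter on low counts (-0.28, adjusted p = 0.0472). An exon of ash2 overlaps CG31125 on the opposite strand in the annotation, and whether the counting used strand is not given in the sources used here. CG31125 itself had a log2 fold change of -0.31 (SE 0.22) in row_RNAi1, with 69 and 71 counts there beside 620 and 650 for ash2.

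The gene trx was not called in any comparison. It measured 30.9, 29.96 and 28.4 CPM in controls, 33.8 and 32.0 in row_RNAi1, and 34.1, 32.9 and 34.2 in row_RNAi2. Every knockdown library was above every control, an arrangement (all 5 on 1 side of all 3, either direction) seen for 3 of 38 genes here, trx, Nurf-38 and, below the controls, Kdm4A, and for 17.2% of all tested genes. The average log2 fold change of trx was 0.17 (SE 0.067, 95% interval 0.02 to 0.31, adjusted p = 0.106). For the methyltransferase genes ash1, Set1 and trr the averages were -0.05, 0.09 and 0.04. Controls of Set1 ranged from 6.25 to 12.1 CPM.

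**Figure D3:**
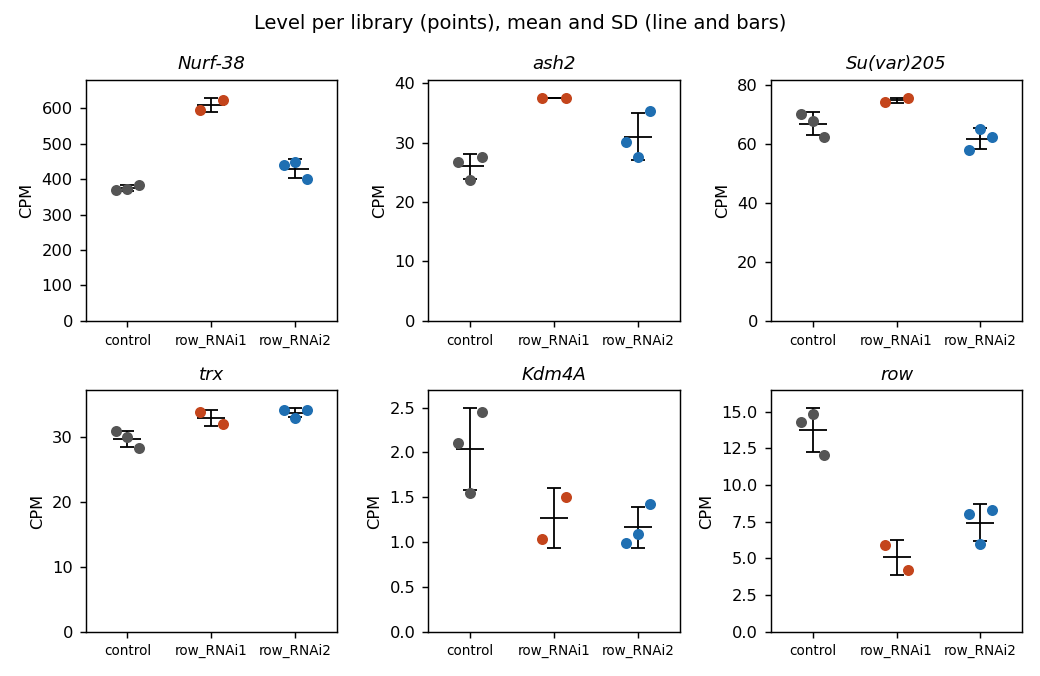
CPM in each library (points) with the group mean and SD (line and bars), from 0, for Nurf-38, ash2, Su(var)205, trx, Kdm4A and the targeted gene row. The 2 row_RNAi1 points lie above all controls for the first 4 genes, and all 5 knockdown points lie below the controls for Kdm4A and row.

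The 4 subunits of the SWI/SNF remodeller, the Brahma complex, had narrow intervals around 0. Their average log2 fold changes ran from -0.10 (mor) to 0.00 (brm, the ATPase), with SE between 0.070 and 0.11, and 0 were called in any comparison. The subunit gene osa had the smallest p, with 33.9, 31.0 and 30.3 CPM in controls, 29.8 and 27.7 in row_RNAi1, and 29.4, 30.8 and 31.5 in row_RNAi2. Its row_RNAi1 libraries were just below the controls and its row_RNAi2 libraries overlapped them. The average of -0.09 had a 95% interval from -0.24 to 0.06 (adjusted p = 0.440). Snr1, a core subunit, had -0.01 with an interval of -0.18 to 0.15.

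Nurf-38 moved most clearly among the 38 genes. Its product is a subunit of the nucleosome remodelling factor NURF and is also the inorganic pyrophosphatase of the cell, an enzyme that removes the pyrophosphate released in biosynthesis. The gene stood at 368, 373 and 384 CPM in controls, 596 and 624 in row_RNAi1, and 440.2, 449 and 399 in row_RNAi2. All knockdown libraries were above all controls, and both row_RNAi1 libraries were above every row_RNAi2 library. The log2 fold change was 0.70 in row_RNAi1 (SE 0.075, adjusted p = 1.59e-06) and 0.19 in row_RNAi2 (SE 0.068, adjusted p = 0.0849), and without row_RNAi2 replicate 3 the latter was 0.24 (adjusted p = 0.033). The difference between the lines, -0.51 (SE 0.075), passed the test (adjusted p = 0.000163). The average of 0.45 (SE 0.062, adjusted p = 3.77e-05) was not called with all knockdown libraries as 1 group (0.42, adjusted p = 0.0985). The summed muscle markers, given above, were also highest in row_RNAi1, and their part in this result was not tested.

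The other ISWI genes were not called. Iswi, which encodes the ATPase of NURF and of the related complexes ACF and CHRAC, had 0.10 in row_RNAi1 (95% interval -0.17 to 0.38) and 0.02 in row_RNAi2 (-0.26 to 0.29). E(bx), which encodes the large subunit of NURF, had -0.08 (-0.31 to 0.15) and 0.06 (-0.16 to 0.28). In row_RNAi1 the lower bound of Nurf-38, 0.54, lay above both upper bounds.

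The CHD-type remodeller genes Mi-2 and kis were not called. Mi-2, the ATPase of the NuRD and dMec complexes, was at 43.5, 42.0 and 47.6 CPM in controls, 38.9 and 38.8 in row_RNAi1, and 44.9, 46.3 and 37.6 in row_RNAi2. The row_RNAi1 libraries were below the controls, while row_RNAi2 held libraries inside and below the control range. Its log2 fold change was -0.19 in row_RNAi1 (SE 0.092, adjusted p = 0.170) and -0.05 in row_RNAi2 (SE 0.086, adjusted p = 0.814). The trithorax group gene kis had -0.04 and -0.02.

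Of the 5 heterochromatin genes, 0 were called against control, but Su(var)205 differed between the lines. It was at 70.3, 68.0 and 62.6 CPM in controls, 74.3 and 75.6 in row_RNAi1, and 58.1, 65.3 and 62.4 in row_RNAi2. Both row_RNAi1 libraries were above all controls and the row_RNAi2 libraries overlapped the controls at their low end. Against control its log2 fold change was 0.16 in row_RNAi1 (SE 0.083, adjusted p = 0.193) and -0.11 in row_RNAi2 (SE 0.077, adjusted p = 0.485), and the difference of -0.27 (SE 0.083) had an adjusted p = 0.0424. That call was lost without control replicate 2 (adjusted p = 0.054), row_RNAi1 replicate 1 (0.178) or 2 (0.224), or row_RNAi2 replicate 1 (0.0959) or 3 (0.0696), and in a fit of the lines without controls (0.0512). An exon of Su(var)205 overlaps CG8419 on the opposite strand, whose own difference between the lines was 0.14 (SE 0.19).

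For the methyltransferase gene Su(var)3-9 the reads were too few for a comparison. It had 4, 11 and 6 counts in controls, 5 and 10 in row_RNAi1, and 7, 10 and 7 in row_RNAi2. The estimate in row_RNAi1, -0.83, had a 95% interval from -1.96 to 0.30. The gene shares exons with eIF-2gamma on the same strand, and reads from the shared part cannot be assigned to it alone. Su(var)3-7, which encodes a zinc-finger partner of HP1a, had 0.29 in row_RNAi1 (SE 0.15, adjusted p = 0.207) and 0.09 in row_RNAi2. The other methyltransferase genes for lysine 9, egg and G9a, had averages of -0.03 (95% interval -0.31 to 0.24) and 0.07 (-0.22 to 0.35).

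Set2, which encodes a methyltransferase for lysine 36 of histone H3, stood at 9.46, 11.6 and 8.82 CPM in controls, 9.26 and 10.2 in row_RNAi1, and 11.5, 8.69 and 10.2 in row_RNAi2. All groups overlapped, and the average log2 fold change was -0.02 (95% interval -0.30 to 0.27, adjusted p = 0.951).

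Among the 4 histone demethylase genes, 0 were called. Kdm4A, whose product removes methyl groups from lysines 9 and 36 of histone H3, was at 2.10, 1.55 and 2.46 CPM in controls, 1.03 and 1.502 in row_RNAi1, and 0.984, 1.09 and 1.42 in row_RNAi2. All knockdown libraries were below all controls. The average log2 fold change of -0.71 was the most negative of the 38 genes, but its SE was 0.31, its 95% interval ran from -1.36 to -0.07 and its adjusted p = 0.132. With 6 to 26 counts per library, an average change of 0.91 would have been needed to pass. The lysine 4 demethylase gene lid (now Kdm5) had -0.08 in row_RNAi1 and -0.23 in row_RNAi2 (SE 0.11, adjusted p = 0.235). Kdm4B and the lysine 27 demethylase gene Utx had averages of 0.04 (SE 0.30) and 0.03 (SE 0.12). Exons of Kdm4B are shared with other genes on its strand.

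The acetyltransferase genes nej, the fly CBP, and Gcn5, the enzyme of the SAGA complex, were not called. Levels of nej were 15.6, 12.3 and 12.1 CPM in controls, 14.5 and 15.9 in row_RNAi1, and 13.6, 16.6 and 15.3 in row_RNAi2. Control replicate 1 lay among the knockdown libraries and the other controls below them. The log2 fold change was 0.20 in row_RNAi1 and 0.21 in row_RNAi2 (SE 0.13 in each), with an average of 0.21 and an adjusted p = 0.255. Gcn5 had 0.20 in row_RNAi1 and -0.13 in row_RNAi2, and the difference of -0.33 (SE 0.13) had an adjusted p = 0.137.

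**Figure D4:**
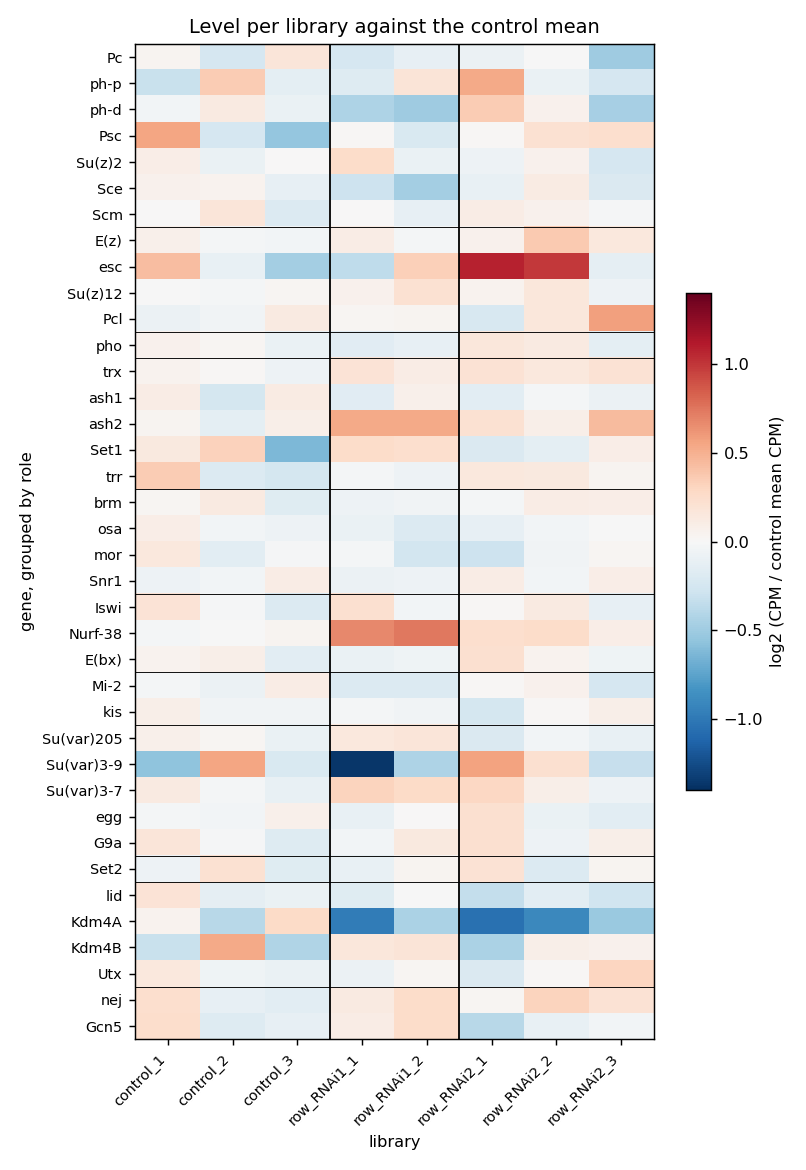
Level of each of the 38 genes (rows, grouped by role) in each library (columns) as log2 of CPM over the control mean, in red where higher and blue where lower. The row_RNAi1 columns are red for Nurf-38 and ash2, the darkest cell is Su(var)3-9 in row_RNAi1 replicate 1 (-1.36), and single control cells reach 0.55 (Psc) and -0.63 (Set1).

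In each control library, 36 of 38 genes lay within 0.5 of the control mean on the log2 scale. The numbers were 34 and 35 in row_RNAi1 and 34, 36 and 36 in row_RNAi2. The control mean includes the control libraries themselves, which draws them towards it, so the groups cannot be compared on these numbers. The same count was not made over all genes. The median log2 ratio of the 38 genes was between -0.10 and 0.06 in every library.

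**Figure D5:**
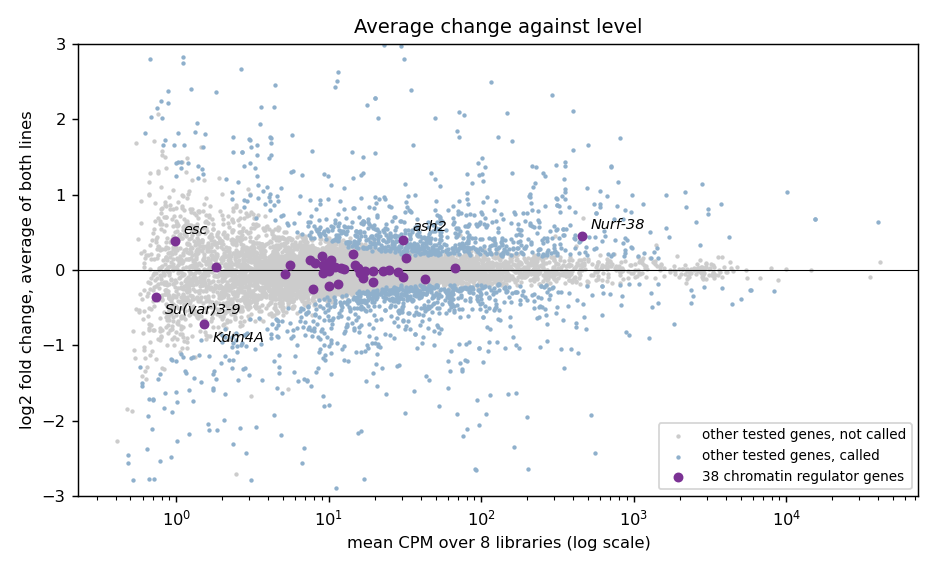
Average log2 fold change over both lines (vertical axis) against mean CPM (horizontal axis, log scale) for all tested genes, with the 38 chromatin regulator genes in purple. Most of these lie near 0. Nurf-38 and ash2 stand above, and Kdm4A, esc and Su(var)3-9 lie at the low levels where uncalled genes spread widely. A total of 57 genes beyond 3 on the log2 scale are not shown.

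A wider list of 106 tested chromatin genes outside the 38 was examined in the same fit. On average over the lines 9 were called (8.49%), 2 higher and 7 lower, against 17.8% of all genes. In row_RNAi1 8 were called (7.55%, beside 21.2% of all genes), 4 each way, in row_RNAi2 1 higher and 3 lower (3.77%, beside 10.8%), and between the lines 2 (1.89%, beside 11.3%). Leaving out 1 library moved these counts. The 9 on average became 5 without control replicate 1, 4 without control replicate 2, 4 without row_RNAi1 replicate 1 and 5 without row_RNAi1 replicate 2. The 8 in row_RNAi1 became 5 without control replicate 1, 2 without row_RNAi1 replicate 1 and 4 without row_RNAi1 replicate 2. The 4 in row_RNAi2 became 2 without control replicate 2, 1 without control replicate 3 and 2 without row_RNAi2 replicate 3. The 2 between the lines became 1 without row_RNAi1 replicate 1 and 0 without row_RNAi1 replicate 2. The median log2 fold change on average was -0.05 (41 positive, 65 negative). The calls on average fell among the deacetylase genes (4 of 11, 1 higher and 3 lower), the heterochromatin genes (3 of 15, all lower), the ISWI and CHD remodeller genes (1 of 13, higher) and the histone variant and chaperone genes (1 of 10, lower). On average 14 of the 106 had an unadjusted p below 0.05, beside 28.3% of all genes.

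The gene HDAC6 encodes a mostly cytoplasmic deacetylase whose best known substrate is tubulin. It rose from 140.3, 144 and 149 CPM in controls to 251 and 257 in row_RNAi1 and to 196, 215 and 192 in row_RNAi2. The groups did not overlap, with log2 fold changes of 0.81 (SE 0.077, adjusted p = 4.07e-07) and 0.48 (SE 0.071, adjusted p = 0.000139). The difference between the lines was -0.33 (SE 0.077, adjusted p = 0.0078), and was not called without row_RNAi1 replicate 1 (adjusted p = 0.0754) or 2 (0.117). Chrac-16, which encodes a histone-fold subunit of the ISWI complex CHRAC, had 6.17, 6.71 and 5.47 CPM in controls, 11.5 and 10.1 in row_RNAi1, and 7.38, 7.69 and 8.37 in row_RNAi2. Its log2 fold change was 0.82 in row_RNAi1 (SE 0.16, adjusted p = 0.00104) and 0.36 in row_RNAi2 (SE 0.16, adjusted p = 0.214), called in row_RNAi1 only. Its average of 0.59 (SE 0.14, adjusted p = 0.00659) became 0.42 with all libraries thinned to the smallest total. The average was not called then (adjusted p = 0.101) or with all knockdown libraries as 1 group (0.0613). After thinning, the row_RNAi1 change was not called either (0.50, adjusted p = 0.104). Its exons overlap those of regucalcin, an abundant gene on the opposite strand that fell by 0.71 on average (adjusted p = 1.97e-07).

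The genes that fell on average with the smallest p were HDAC1, XNP, Sirt2, Nlp, bon and vig. Only HDAC1 was called in both lines, and neither call held in all alternatives. In row_RNAi1 (adjusted p = 0.047) it was not called by DESeq2 (adjusted p = 0.1), with a replicate block (0.0931) or after thinning (0.0624). Nor was it called there without control replicate 2 (0.161) or 3 (0.129), among others. In row_RNAi2 (adjusted p = 0.018) the call was lost without control replicate 2 (0.0854) or 3 (0.0722), or without row_RNAi2 replicate 3 (0.0834). XNP and Nlp were called in row_RNAi2 but not in row_RNAi1 (adjusted p = 0.0928 and 0.167). Sirt2, bon and vig were called in row_RNAi1 but not in row_RNAi2 (adjusted p = 0.101, 0.271 and 0.209). None of XNP, Nlp, Sirt2, bon and vig was called in the difference between the lines. DESeq2 called neither XNP in row_RNAi2 (adjusted p = 0.0809) nor Sirt2 in row_RNAi1 (0.0907). Without control replicate 2, Nlp was not called in row_RNAi2 (0.0793) nor vig in row_RNAi1 (0.112). Without control replicate 1, bon was not called in row_RNAi1 (0.0537). HDAC1 (Rpd3), the deacetylase of the Sin3 and NuRD complexes, went from 6.83, 9.19 and 9.04 CPM in controls to 6.24 and 5.32 in row_RNAi1 and 5.25, 5.52 and 4.72 in row_RNAi2. Every knockdown library was below every control, and the average log2 fold change was -0.62 (SE 0.16, adjusted p = 0.00904). The other averages were -0.29 for XNP, the fly ATRX remodeller, -0.27 for the sirtuin gene Sirt2, -0.25 for the histone chaperone gene Nlp, -0.27 for bon, the fly TIF1, and -0.24 for vig, with adjusted p from 0.014 to 0.0308. Each of these 6 calls was lost without at least 1 library. Without control replicate 1, adjusted p was 0.0624 for XNP, 0.140 for bon and 0.0562 for vig. Without control replicate 2 it was 0.0639 for HDAC1, 0.117 for Nlp, 0.0875 for bon and 0.183 for vig, and without control replicate 3 it was 0.0896 for XNP, 0.113 for Sirt2 and 0.0714 for Nlp. Without row_RNAi1 replicate 1 it was 0.0662 for Sirt2, 0.0563 for Nlp, 0.0886 for bon and 0.135 for vig, without row_RNAi1 replicate 2 it was 0.0635 for XNP, 0.0748 for Nlp and 0.0517 for bon, and without row_RNAi2 replicate 2 it was 0.0598 for bon. DESeq2 did not call XNP (0.0713), Sirt2 (0.0835) or bon (0.0951). With all knockdown libraries as 1 group, Nlp (0.0734), bon (0.104) and vig (0.115) were not called. With libraries thinned to the smallest total, XNP (0.0644), Nlp (0.0654) and bon (0.394) were not called, and the average of bon became -0.14. An exon of Nlp overlaps Nph on the opposite strand. In row_RNAi2, Nph was called lower (-0.32, adjusted p = 0.016), where Nlp had -0.31. In row_RNAi1, Nph had 0.08 and Nlp -0.18. The part of Nph reads in the Nlp values was not tested.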

How the data were processed

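The authors deposited raw counts of reads per gene symbol for 8 libraries, in 1 table. STAR and dm3 appear as tool and build in the submitters' processing notes. The counting program, annotation and use of strand are not given in the sources used here. Counts were tested in R 4.3.3 with edgeR 4.0.16: TMM scaling, filterByExpr, a 3-group quasi-likelihood fit over all 8 libraries and Benjamini-Hochberg adjustment over all 9442 genes. CPM were computed on TMM-scaled totals. SE were derived from the F statistic, and 95% intervals from the SE and the fitted degrees of freedom. Alternatives used DESeq2 1.42.0 and limma voom 3.58.1, among others. The fit was tested on simulated data. The 38 genes and the other lists were chosen with earlier results of these data known. Values per library are given for genes called in any comparison and, where a role held none, for its gene of smallest p on average, and for the other chromatin genes the 6 of smallest p each way among those called on average. Others, among them trx, ph-d, esc, Su(var)3-9 and yem, were named after their values were seen. Gene overlaps and current names came from the Release 6 annotation, matched by symbol for all 38 genes; as its build differs from dm3, no coordinates are given, and 17 of the 38 overlapped an exon of another gene. The labels do not say that libraries came from separate collections of flies, so p-values measure the spread between these libraries, which may be technical. Replicates of a group were distinct libraries: their counts varied well beyond sampling error (chi-square per degree of freedom 6.23 to 10.8).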

Additional observations from a re-analysis of the deposited data

Results flagged for a closer look

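The effects of the RNAi lines differed, by a test of the difference itself, for 4 of the genes named. These are 2 of the 38 genes (5.26%) and 2 of the 106 other chromatin genes (1.89%), beside 11.3% of all tested genes. Nurf-38 was lower in row_RNAi2 than in row_RNAi1 by -0.51 on the log2 scale (edgeR adjusted p = 0.000163). Su(var)205 differed by -0.27 (adjusted p = 0.0424), the call that was lost in several alternatives. HDAC6 differed by -0.33 (adjusted p = 0.0078). The histone H3.3 chaperone gene yem, chosen after its values were seen, differed by -1.04 (SE 0.25, adjusted p = 0.00964). Against control it was called in neither line, with 0.62 in row_RNAi1 (SE 0.24, adjusted p = 0.0782) and -0.42 in row_RNAi2 (SE 0.26, adjusted p = 0.411). In row_RNAi1 it was called by limma voom (adjusted p = 0.0447) and with no filter on low counts (0.0439). It had 2.63, 4.96 and 4.02 CPM in controls, 5.75 and 6.36 in row_RNAi1, and 2.46, 3.26 and 2.94 in row_RNAi2, and was not called between the lines without row_RNAi1 replicate 2 (-0.97, adjusted p = 0.101) or with libraries thinned to the smallest total (-0.77, adjusted p = 0.149). An exon of yem overlaps Atg14 on the opposite strand, which had 474 and 562 counts in row_RNAi1 beside 95 and 110 for yem. Atg14 differed between the lines by -0.265 (adjusted p = 0.204), and its part in the yem values was not tested. Groups here hold 2 or 3 libraries, too few for a check of single outlying libraries.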

How the results depend on the processing

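Among the 38 genes, the 2 calls in row_RNAi1 held in all alternatives run, with 2 called without each library in turn, and 3 with the replicate block, which added ph-d (-0.60, adjusted p = 0.0409). In row_RNAi2 the count of 0 became 1 with DESeq2 and 1 with limma voom, and ran from 0 to 1 without each library. The average count of 2 became 0 with all knockdown libraries as 1 group, and stayed at 2 without each library. Between the lines the count of 2 became 1 in a fit of the lines alone and ran from 1 to 3 without each library. Where row_RNAi1 was left with 1 library, it was assumed to vary like the other groups. The mean difference of row ran from -8.11 to -6.69 CPM. No called value of the 38 genes changed sign. Of estimates for uncalled genes, 38 of 566 in row_RNAi1, 51 of 599 in row_RNAi2, 60 of 567 on average and 36 of 568 between the lines did. Calls over all genes went from 2001 in row_RNAi1 to 1226 or 1275, and from 1068 between the lines to 555 in each case, without row_RNAi1 replicate 1 or 2. On average they went from 1680 to 834 with 1 knockdown group, and over the other chromatin genes from 9 to 4 there, to 5 with DESeq2 and to 4 after thinning, an alternative chosen after seeing the data. After thinning, the other chromatin genes called went from 8 to 3 in row_RNAi1 and from 2 to 1 between the lines, where they were 4 with no filter on low counts, 4 with limma voom and 1 among genes of at least 5 CPM. Deviations of same-numbered libraries from their group means correlated between -0.129 and 0.0605, so no strong shared shift was seen. As deviations sum to 0 within groups of 2 or 3 libraries, this cannot show that the numbers carry no pairing. With the replicate block, ash2 was called between the lines (-0.36, adjusted p = 0.026) and Su(var)205 was not (-0.25, adjusted p = 0.0896). RLE scaling moved the median of all genes by less than 0.1. The cause of these changes was not tested.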

Other observations

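The genes that the annotation lists as Caf1-55 and Sirt1 carry Caf1 and Sir2 as older names. Caf1-55, whose product is a histone-binding subunit shared by PRC2, NURF and the CAF-1 chaperone, stood at 11.2, 10.1 and 12.8 CPM in controls, 13.8 and 14.4 in row_RNAi1, and 13.3, 10.9 and 12.3 in row_RNAi2. Its log2 fold change in row_RNAi1 was 0.31 (SE 0.13, adjusted p = 0.121). The deacetylase gene Sirt1 stood at 25.3, 27.1 and 22.3 CPM in controls, 26.3 and 25.6 in row_RNAi1, and 19.7, 30.6 and 29.6 in row_RNAi2, with an average log2 fold change of 0.09 (SE 0.11, adjusted p = 0.657).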
